A study of Homo sapiens with 24 samples.

Results

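The UTX peaks of cells carrying wild-type UTX were set against those of cells carrying a catalytic mutant, by the position of their summits. The members were all peaks of the UTX list of the wild-type line (2566) and of the mutant line (2855). Together they made up 5421 of the 1483402 regions in the 18 peak lists analysed. All came from UMUC1 cells, a line established from a human bladder cancer, by sequencing of immunoprecipitated chromatin (ChIP-seq). The cells carried a pSIN construct, which was empty in the EV line, held unaltered UTX in the WT line and, in the HEAA line, held UTX with the substitutions H1146A and E1148A. Per the labels, cells were taken 3 days after plating. Chromatin for UTX and MLL4 was cut with micrococcal nuclease for 3 minutes, to fragments mostly of 300 to 900 bp, and then sonicated for 5 minutes. The sources used here do not say whether a line was 1 clone or a pool of cells. There was 1 UTX list and 1 MLL4 list per line, so all values below describe those lists, with no replicate error and no test, and the read depth behind them is unknown.

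UTX, also called KDM6A, removes methyl groups from lysine 27 of histone H3. It is also a subunit of the complexes built around MLL3 and MLL4, which methylate lysine 4 of histone H3 at enhancers, so it has both a catalytic and a structural role there. Both substitutions lie in the catalytic domain. A peak is an interval in which the peak caller found more reads than in its background. The summit is the base of highest signal within it. Fold enrichment, p and q are the values of the authors' peak caller and are read here only within a list. Positions are on hg19 and are counted from 1.

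Each WT peak was paired with the overlapping HEAA peak of nearest summit when that choice was mutual. This gave 1718 pairs, which held 67.0% of the WT list (95% Wilson interval 65.1% to 68.7%) and 60.2% of the HEAA list (58.4% to 62.0%). Another 9 WT and 5 HEAA peaks overlapped a peak that had a nearer partner. The remaining 839 WT and 1132 HEAA peaks had no overlap. They were rarely near misses: a summit of the other list lay within 500 bp of only 14 of the unpaired WT peaks (1.67%) and 11 of the unpaired HEAA peaks (0.972%). Their median distance to the nearest summit of the other list was 112 kb and 144 kb. Unpaired peaks had a lower median fold than paired ones, 4.76 against 5.56 in WT and 4.90 against 5.72 in HEAA. They were also narrower, with medians of 202 against 257 bp in WT and 207 against 273 bp in HEAA.

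In paired peaks the mutant protein peaked at nearly the same bases as the wild-type protein. The median distance between the WT and HEAA summits of a pair was 27 bp (95% order-statistic interval 26 to 29 bp, n = 1718 pairs). The quartiles were 12 and 52 bp, and the largest distance was 614 bp. Summits lay at most 50 bp apart in 1279 pairs, 74.4% of all pairs. They were at most 10 bp apart in 379 pairs (22.1%) and on the same base in 14 (0.815%). Only 60 pairs (3.49%) had summits more than 150 bp apart, a distance close to the DNA wrapped on a nucleosome, and 10 more than 300 bp. In 1642 pairs (95.6%) each summit lay inside the other line's peak, and in 9 neither did. Intervals on shares and medians cover the counting of peaks only.

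Along the genome coordinate the displacement had no preferred side. Sites were not oriented by strand, gene or motif, so a shift relative to such a feature would not be seen in these counts. The HEAA summit was at the higher coordinate in 850 pairs (49.5%) and at the lower in 854 (49.7%), and the median signed shift, HEAA minus WT, was 0 bp. The midpoints of the paired peaks were as close as their summits, with a median of 28 bp (26 to 30 bp). The summits were the closer of the 2 measures in 827 pairs and the midpoints in 864. MLL4, profiled in the same lines with the same chromatin preparation, gave a like spread: 465 WT–HEAA pairs of MLL4 peaks had a median summit distance of 25 bp (21 to 29 bp), and 72.5% were within 50 bp.

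**Figure D1:**
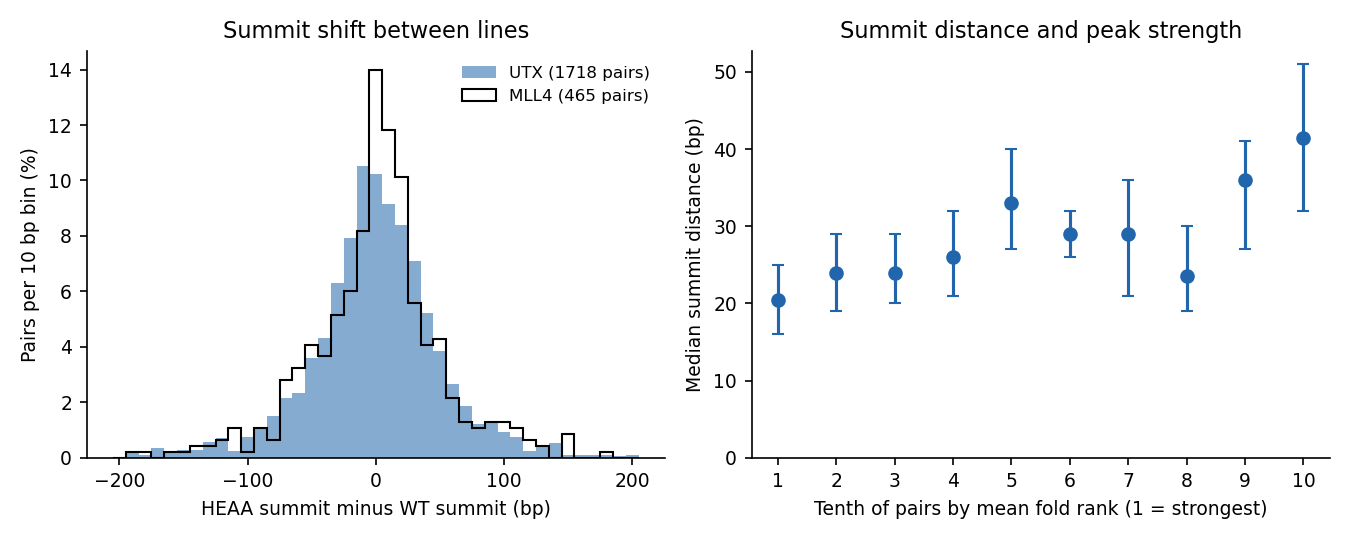
Left, the shift of the summit from WT to HEAA in bins of 10 bp, as a percent of the 1718 UTX pairs (filled) and of the 465 MLL4 pairs (line), with 35 UTX pairs beyond the axis. Right, the median summit distance of UTX pairs with its 95% order-statistic interval for groups of 10% of the pairs by mean fold rank: it is 20.5 bp in the strongest group and 41.5 bp in the weakest.

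Strong peaks were placed more closely than weak ones. By mean rank of fold over both lists, the strongest 10% of pairs had a median distance of 20.5 bp (16 to 25 bp) and the weakest 10% 41.5 bp (32 to 51 bp). Within 50 bp lay 83.1% of the strongest and 57.6% of the weakest group. Ranking by q instead gave medians of 21 bp and 51 bp (43 to 63 bp). The groups between were not in strict order, and the rank correlation of distance with mean fold rank was weak (Spearman rho 0.138, 1718 pairs). Each pair is read from the same libraries as its rank, so the points are not independent.

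The 15 pairs with the best mean fold rank show this placement at the level of single sites. Of these, 14 had summits at most 50 bp apart, against 74.4% of all pairs, and their median distance was 14 bp. The first lay on chromosome 21, with a WT peak at 36218060 to 36218408 and a HEAA peak at 36218077 to 36218391. Its summits were at 36218247 in WT (13.3-fold) and 36218223 in HEAA (14.6-fold), and it had rank 3 by fold in both lists. The second, on chromosome 9 at 117670434 to 117670998 in WT, had summits at 117670629 and 117670633, and a fold of 12.4 in WT and of 16.4 in HEAA, the highest of that list. Both of these overlapped a UTX peak of EV, where the cells had no UTX construct, as did the chromosome 4 pair ranked 13th (84128937 to 84129215, summits 20 bp apart). EV peaks were thus met by 3 of the 15, against 1.57% of all pairs.

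At the third site, on chromosome 19, the WT summit was at 39524314 and the HEAA summit 1 bp away at 39524313, with 12.8-fold and 11.7-fold. On chromosome 12 a WT peak of 656 bp (53339284 to 53339939) and a HEAA peak of 698 bp had summits 13 bp apart, at 53339424 and 53339437. On chromosome 20 the summits at 46110747 and 46110733 differed by 14 bp between peaks of 366 and 365 bp. The exception among the 15 was on chromosome 17, where the summits at 53510664 and 53510768 lay 104 bp apart, in a WT peak of 366 bp (11.7-fold) and a HEAA peak of 556 bp (13.1-fold). In the other 9 sites, on chromosomes 2, 3, 4, 9, 11, 12, 19 and 21, the distance ran from 8 to 48 bp.

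Pairs on the same base were not limited to the strongest peaks. Among the 14 such pairs, the 5 with the best mean rank lay on chromosome 22 (summit 29774127), chromosome 15 (72460745 and 22977420), chromosome 19 (13957860) and chromosome 17 (73092374). Their intervals still differed. At the chromosome 22 site the WT peak was 199 bp and the HEAA peak 342 bp wide, with 7.48-fold and 10.5-fold. At the chromosome 19 site the peaks were 685 and 694 bp wide, and the fold was 8.84 in WT, rank 125, and 5.76 in HEAA, rank 1059.

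Far pairs were more frequent among wide peaks. Since the peaks of a pair had to overlap, their widths limit the distance in every class, so this rise is in part set by the pairing. Summits more than 150 bp apart occurred in 0 of 181 pairs with a mean width under 200 bp (upper limit of the Wilson interval 2.08%), where the width itself leaves little room. They occurred in 11 of 919 pairs (1.20%) of 200 to under 300 bp, 21 of 412 (5.10%) of 300 to under 400 bp and 28 of 206 (13.6%) of 400 bp or more. The median distance over these classes rose only from 23 bp (20 to 30) to 35 bp (27 to 42).

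The largest displacement was on chromosome 15, where the WT summit at 70785384 and the HEAA summit at 70784770 lay 614 bp apart, in peaks of 375 and 762 bp. Next came a chromosome 11 pair, with a WT peak at 10921066 to 10921690 and a HEAA peak at 10921047 to 10921733. These nearly coincident intervals had summits at 10921169 in WT and 10921569 in HEAA, 400 bp apart. The other 6 of the 8 farthest pairs lay on chromosomes 1, 2, 4, 18 and 20, with distances of 338 to 398 bp. Fold in these 8 pairs was 4.58 to 7.19 in WT and 3.88 to 10.8 in HEAA. All 8 had H3K27ac, the acetylation of active enhancers and promoters, over both summits in both libraries of the WT and HEAA lines, as did 57.4% of all pairs.

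Strength was compared by rank, which the pairing did not use, whereas closeness of position was in part set by it. Over the 1718 pairs the fold of WT and HEAA had a Spearman rho of 0.378, and −log10 p and −log10 q each gave 0.544. These correlations describe pairs drawn from 2 libraries, and peaks called in only 1 list are not in them. Nearly every strong peak had a partner: all of the top 25 of each list, and 96 of the top 100 of WT and 100 of the top 100 of HEAA. The partner was often outside the top. Of the top 25 by fold, 8 were paired with each other (32.0%, interval 17.2% to 51.6%), of the top 100, 39 (39.0%), and of the top 1000, 500 (50.0%). The paired peaks of the WT top 100 had a median HEAA rank of 131.5, and those of the HEAA top 100 a median WT rank of 170.25. The lowest partner rank was 2176.5 of 2855 in HEAA and 2541 of 2566 in WT. By q the shared numbers were 7 of 25, 45 of 100 and 587 of 1000. The share that unrelated ranks would give also rises with the number taken, and it was not computed. The higher shares of the longer top lists are therefore not read as better agreement.

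**Figure D2:**
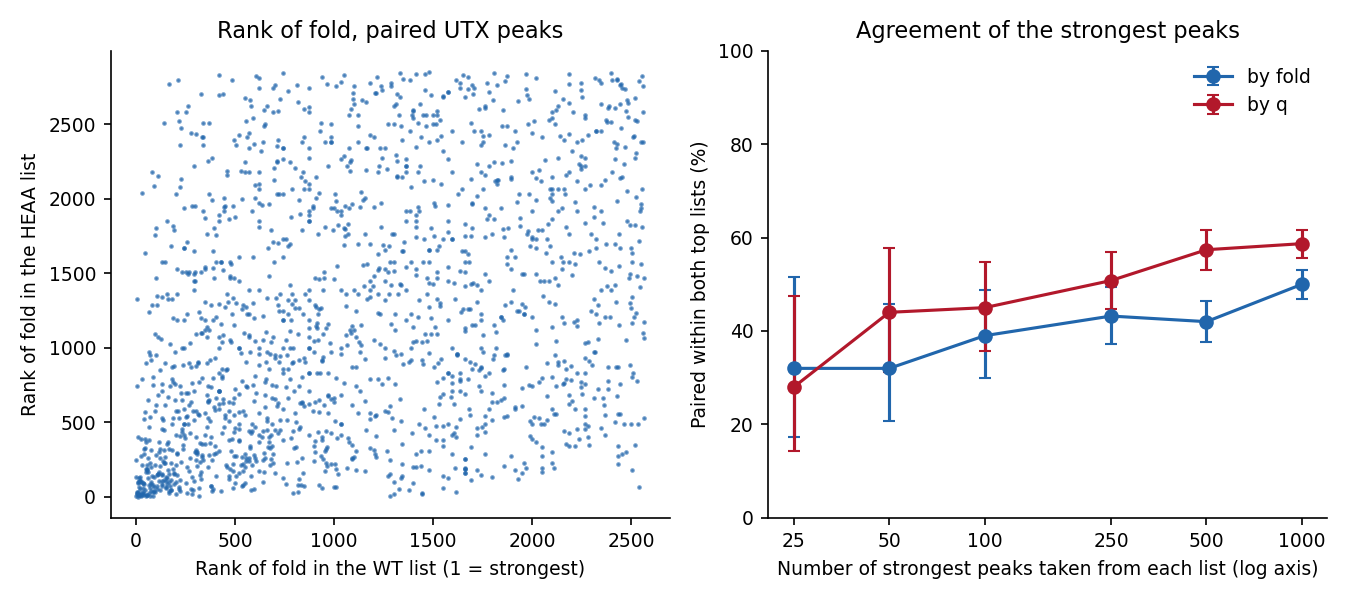
Left, rank of fold in the WT list against rank of fold in the HEAA list for the 1718 paired UTX peaks, 1 point each. Right, the percent of the strongest peaks of each list that are paired with each other, by the number taken (log axis), with 95% Wilson intervals: by fold it goes from 32.0% of the top 25 to 50.0% of the top 1000, and by q from 28.0% to 58.7%. The share that unrelated ranks would give also rises with the number taken and is not drawn.

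HEAA peaks were slightly wider. Over whole lists the median width was 234 bp in WT and 241 bp in HEAA, and 85 WT peaks (3.31%) and 119 HEAA peaks (4.17%) reached 500 bp. Both lists had a floor, 167 bp in WT (143 peaks) and 170 bp in HEAA (149 peaks). The summit sat near the middle of the interval in both, at a median of 0.495 of the width in WT and 0.487 in HEAA. Within pairs the medians were 257 and 273 bp, and the median difference, HEAA minus WT, was 13 bp (9 to 18 bp), or 10 bp once the floor of each list was subtracted. The HEAA peak was the wider in 981 pairs, 57.1% (interval 54.7% to 59.4%), and the WT peak in 726 (42.3%). Single pairs varied more than this difference: the quartiles were −37.75 and 66 bp, and 299 pairs (17.4%) differed by more than 1.5 times. Widths of WT and HEAA had a rho of 0.488 over the pairs.

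Width moved with strength. Within a list, width and −log10 q had a rho of 0.434 in WT and 0.428 in HEAA. Where the pair ranked relatively higher in HEAA by q, HEAA was wider in 616 of 910 pairs (67.7%), by a median of 32 bp. Where it ranked higher in WT, HEAA was wider in 365 of 808 (45.2%), with a median difference of −7 bp. The part of strength or depth in the width difference was not tested otherwise. In MLL4 pairs the HEAA peak was the wider in 252 of 465 (54.2%), with a median difference of 5 bp.

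Of the 5 widest pairs, 3 had summits at most 50 bp apart, against 74.4% of all pairs. The widest, on chromosome 3, measured 942 bp in WT (193852038 to 193852979) and 951 bp in HEAA, with summits 26 bp apart at 193852824 and 193852798, and it overlapped a UTX peak of EV. A chromosome 11 pair of 859 and 837 bp (WT 119567126 to 119567984) had summits 18 bp apart. The next 3, on chromosomes 12, 3 and 20, had distances of 71, 64 and 4 bp. The 15 best-ranked pairs were also wide, with medians of 355 bp in WT and 396 bp in HEAA, and HEAA was the wider in 12 of the 15, against 57.1% of all pairs.

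**Figure D3:**
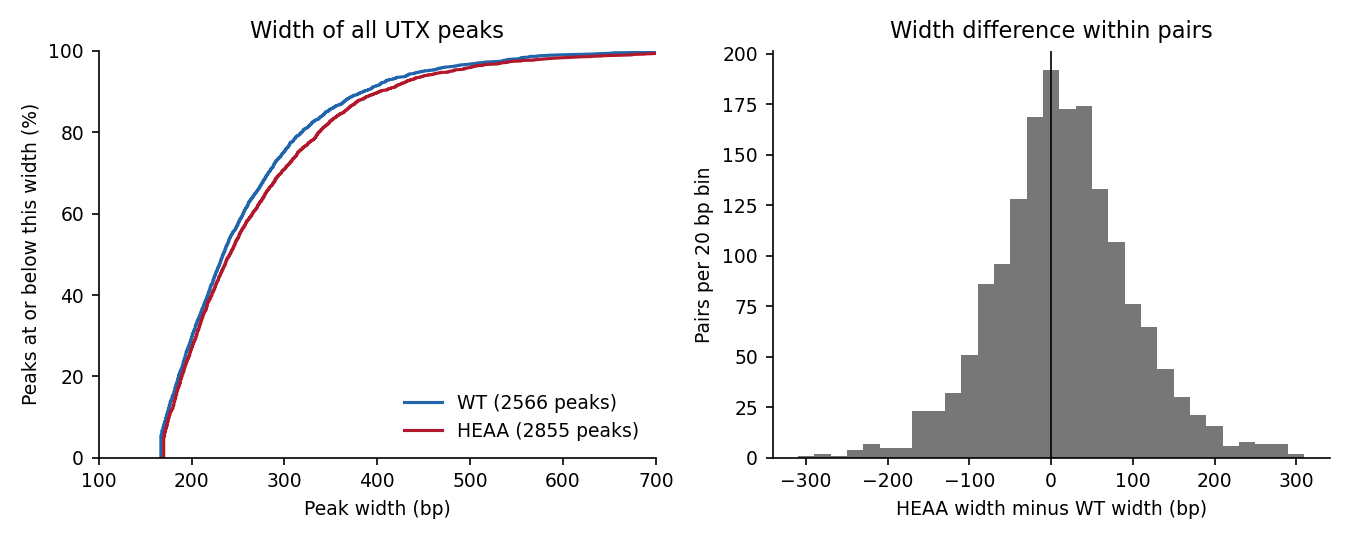
Left, the percent of UTX peaks at or below each width in bp for WT (2566 peaks) and HEAA (2855 peaks), with 6 and 19 peaks beyond the axis. Right, the number of the 1718 pairs by HEAA width minus WT width in bins of 20 bp, with 24 pairs beyond the axis: the distribution is centred at 13 bp.

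MLL4, the methyltransferase at the core of the complex, peaked as close to UTX as the UTX proteins did to each other. An MLL4 summit of the same line lay within 200 bp of 570 UTX summits in WT, 22.2% of the list (interval 20.6% to 23.9%), and of 732 in HEAA, 25.6% (24.1% to 27.3%). The median distance among these was 28 bp in both lines (25 to 31 bp in WT, 25 to 30 bp in HEAA). Within 50 bp lay 413 of the 570 and 542 of the 732. Beyond 200 bp almost nothing was added, with 25 WT and 28 HEAA summits whose nearest MLL4 summit was over 200 and up to 1000 bp away. MLL4 was at the higher coordinate in 257 and the lower in 303 of the WT cases, and in 356 and 365 of the HEAA cases.

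The MLL4 lists of both lines were set against the UTX summits of both lines. WT UTX summits had an MLL4 summit of HEAA within 200 bp in 24.7% of cases, above their share with MLL4 of WT, and HEAA UTX summits had one of WT in 19.4%. The HEAA list of MLL4 is the longer, with 1125 peaks against 898 in WT, so the shares are not on an equal footing. Read from the MLL4 side, 63.5% of the WT MLL4 summits had a WT UTX summit within 200 bp and 61.7% a HEAA UTX summit. Of the HEAA MLL4 summits, 65.1% had a HEAA and 56.3% a WT UTX summit. Each MLL4 list thus had its higher share with the UTX summits of its own line, while both UTX lists had theirs with the longer MLL4 list. For the WT MLL4 summits the intervals overlapped (60.3% to 66.6% with WT UTX, 58.5% to 64.8% with HEAA UTX). The UTX lists also differ in length, 2566 in WT and 2855 in HEAA, which favours HEAA UTX. A match of MLL4 and UTX particular to a line is not read from these shares. MLL4 of EV, with 133 peaks, lay within 200 bp of 2.30% of the WT and 2.14% of the HEAA UTX summits. The length of that list limits these shares. From the MLL4 side, 44.4% of the EV MLL4 summits had a WT UTX summit within 200 bp and 45.9% a HEAA one. The share of UTX summits with MLL4 of the same line was steep in UTX strength. MLL4 of the same line was within 200 bp of 51.0% of the strongest 10% of WT UTX summits by fold and 4.67% of the weakest, and of 58.0% and 13.3% in HEAA.

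**Figure D4:**
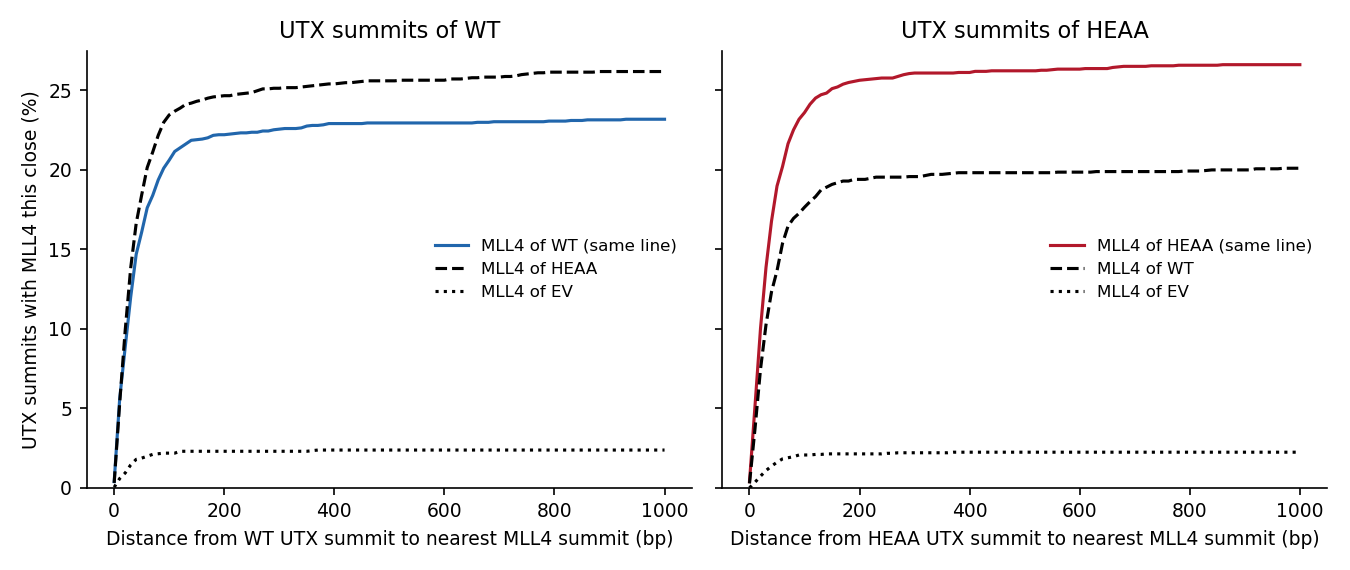
Percent of UTX summits of WT (left) and HEAA (right) with an MLL4 summit at or within each distance in bp. Curves are for MLL4 of the same line (solid), of the other line (dashed) and of EV (dotted, a list of only 133 peaks). All curves rise within 200 bp and are flat to 1000 bp: at 200 bp they stand at 22.2%, 24.7% and 2.30% for WT, and 25.6%, 19.4% and 2.14% for HEAA.

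At 321 pairs, 18.7% of all pairs, an MLL4 peak overlapped the UTX peak in both lines, so that a site had 4 summits from 4 libraries. Their pairwise medians hardly differed. UTX to UTX was 24 bp, MLL4 to MLL4 27 bp, UTX to MLL4 27 bp within WT and 24 bp within HEAA, and UTX of one line to MLL4 of the other 24 and 27 bp. The 4 summits spanned a median of 52 bp (48 to 60 bp), and at 260 sites (81.0%) all lay within 100 bp. Of the 15 best-ranked pairs, 11 had MLL4 in both lines, against 18.7% of all pairs.

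The tightest clusters among the 10 best-ranked of these sites were on chromosomes 19 and 12. On chromosome 19 the UTX summits of the pair at 12894588 to 12895126 were at 12894771 in WT and 12894751 in HEAA, and the MLL4 summits at 12894769 and 12894754. On chromosome 12 at 123555239 to 123555470 UTX peaked at 123555332 and 123555320 and MLL4 at 123555324 and 123555331. This is where MLL4 reached its highest fold among the 10 sites, 14.0-fold in WT, level with the chromosome 19 site at 39524314, and 18.3-fold in HEAA. At the chromosome 9 pair ranked second overall the MLL4 summit of WT fell on the UTX summit base, 117670629, and that of HEAA 54 bp above its own UTX summit.

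Whether the direction from UTX to MLL4 at a site carried over between the lines could not be decided from the summits. Over the 321 sites the median distance from UTX to MLL4 was 27 bp in WT and 24 bp in HEAA. Between the lines, the UTX summits lay as far apart (median 24 bp), and so did the MLL4 summits (27 bp). Scatter of the summits alone can thus set the side, and no conclusion is drawn from it. MLL4 lay on the same side of UTX in both lines at 155 of the 321 sites, 48.3% (interval 42.9% to 53.7%), on opposite sides at 156, and on the UTX base in at least 1 line at 10. Over the 321 sites the signed offsets of WT and HEAA had a Pearson r of 0.0698 and a Spearman rho of 0.0123. With peaks of −log10 q of at least 5 only, r was 0.400, rho 0.0356 and the same-side share 47.9%. With both offsets within 200 bp, r was 0.0308 over all peaks (313 sites) and 0.0682 with that q limit. Midpoints in place of summits gave higher values, r 0.289 and rho 0.188. Only 26 sites had both offsets at 50 bp or more, and 12 of them kept their side (46.2%, interval 28.8% to 64.5%). The shift from WT to HEAA had correlations near 0 between UTX and MLL4 (r 0.0110, rho −0.00853), with the same direction at 152 sites and opposite directions at 159.

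**Figure D5:**
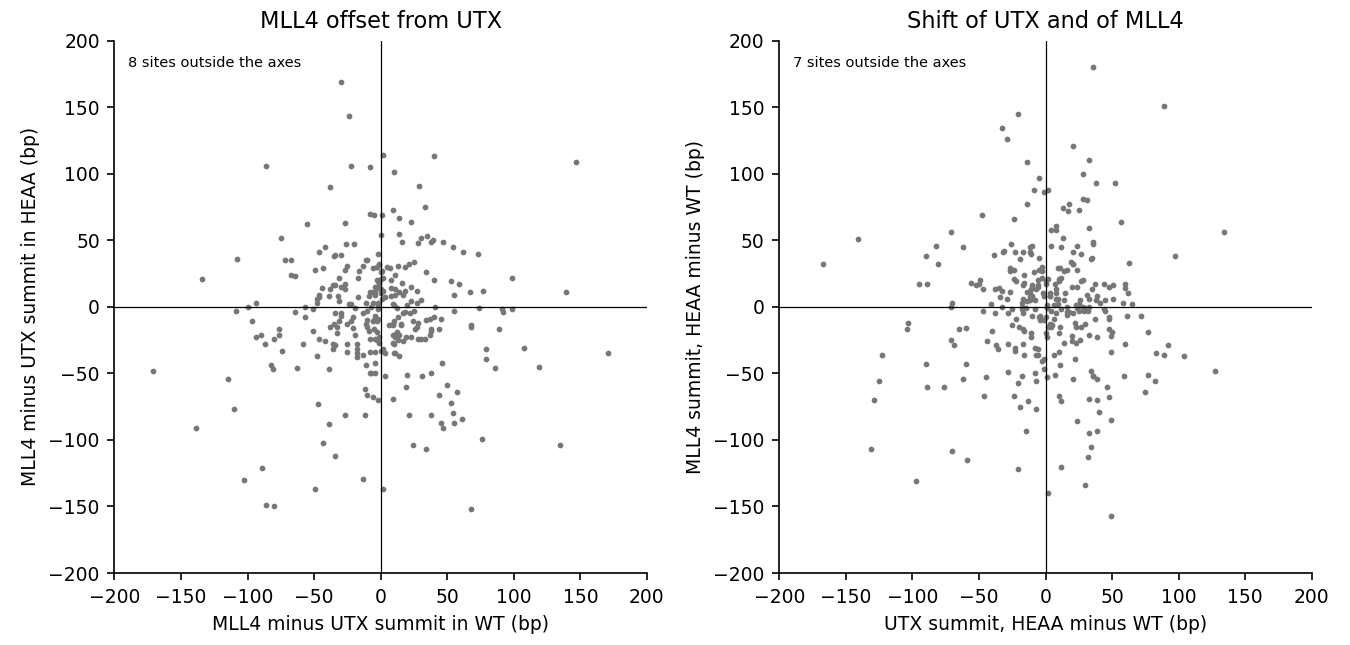
Each point is 1 of the 321 sites with UTX and MLL4 peaks in both lines. Left, the MLL4 summit minus the UTX summit in HEAA against the same in WT (8 sites outside the axes). Right, the shift of the MLL4 summit against that of the UTX summit, HEAA minus WT (7 outside); in both, points fill all 4 quadrants.

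Of the 60 pairs whose UTX summits were more than 150 bp apart, 22 had MLL4 in at least 1 line and 5 in both. All 5 are described, and were chosen after their values were seen. At the chromosome 11 pair with UTX summits at 10921169 and 10921569, the MLL4 summits were exchanged: MLL4 of WT peaked at 10921553, 16 bp from the UTX summit of HEAA, and MLL4 of HEAA at 10921167, 2 bp from the UTX summit of WT. Within a line UTX and MLL4 there were 384 and 402 bp apart. A chromosome 16 pair (WT peak 68267977 to 68268458) showed the same arrangement less tightly. UTX peaked at 68268331 in WT and 68268110 in HEAA and MLL4 at 68268141 and 68268392, so that each UTX summit was nearer to MLL4 of the other line (61 and 31 bp) than of its own (190 and 282 bp). On chromosome 17 (UTX 43248777 and 43248523), by contrast, MLL4 moved with UTX, from 43248750 to 43248442. On chromosome 2 (UTX 20271848 and 20271628) MLL4 moved the same way but farther, by 440 against 220 bp. On chromosome 3 (UTX 129382169 and 129382002) UTX lay 167 bp apart and MLL4 only 32 bp, beside the UTX summit of WT.

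Pairs with MLL4 were somewhat more closely placed, and they were also stronger. The median UTX distance was 24 bp (21 to 28 bp) with MLL4 in both lines and 29 bp (27 to 32 bp) at the 957 pairs with MLL4 in neither, with 81.0% and 71.5% within 50 bp. The median of the mean fold rank was 650.5 and 1371 in these groups, and the part of strength in the difference was not tested. Where MLL4 was called in 1 line only, the median UTX width was larger in that line. It was 271.5 bp in WT against 258 bp in HEAA at the 174 pairs with MLL4 of WT only. At the 266 pairs with MLL4 of HEAA only it was 252.5 against 295 bp. These groups were set by overlap of MLL4 with the UTX peak, which a wider UTX peak makes easier. The width difference is thus in part built into the grouping, and the part of strength was not tested.

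At the summit base, H3K4me1 was near-equal in WT and HEAA and higher in EV, with 1 library per line. This mark, which MLL3 and MLL4 deposit, covered the summit base in 42.0% of pairs in WT (39.7% to 44.3%) and 42.3% in HEAA (40.0% to 44.7%), and in 52.0% (49.7% to 54.4%) in EV at the WT summit base. The histone marks came from another preparation, sonicated for 14 minutes, for which the labels give no nuclease step. A region of H3K4me1 lay within 500 bp of the summit in 98.1% of pairs in WT and 99.0% in HEAA. In EV this share was 98.8%, at the WT summit, so the lines were alike at that distance. The mark covered the base of both summits in 32.0% of pairs, only 1 of them in 350 (20.4%) and neither in 819 (47.7%). Summits outside the mark sat in gaps between marked regions. Of the 997 such summits in WT, 938 (94.1%) lay in a gap of at most 2000 bp between 2 H3K4me1 regions, with a median gap of 463 bp, and of the 991 in HEAA, 938 (94.7%), with 455 bp. They sat near the centre of the gap, at a median of 54.25 bp from its middle in WT and 59 bp in HEAA, and 80.9% and 80.5% were in the central 50% of it. How often other positions lie in such gaps, or within 500 bp of H3K4me1, was not measured. These shares are therefore not read as particular to UTX summits. Of the 15 best-ranked pairs, 3 had H3K4me1 over both summits, against 32.0% of all pairs, and 11 had H3K27ac in all 4 libraries, against 57.4%.

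H3K27ac covered the summit in 78.0% ± 13.3 of pairs in WT (SD, n = 2 libraries) and 75.1% ± 18.6 in HEAA, so the lines differed by less than their libraries. The 2 libraries gave 87.4% and 68.6% in WT, 88.2% and 61.9% in HEAA, and 79.9% and 77.1% in EV. The labels do not say whether these came from separate cultures. H3K27me3, the mark that UTX removes, covered the summit of 2 pairs in WT, 5 in HEAA and 4 in EV, out of 1718. Within 500 bp of the summit it was called at 21 pairs in WT (1.22%), 20 in HEAA (1.16%) and 10 in EV (0.582%). With 1 library per line and so few pairs, no difference between the lines is read from these counts. H3K27ac was called more often where the summits lay far apart. From pairs at 25 bp or less to pairs above 100 bp, its share went from 86.7% to 91.5% and from 66.0% to 76.1% in the WT libraries, and from 87.5% to 92.3% and from 60.5% to 75.4% in those of HEAA. The EV libraries gave 80.4% and 84.5%, and 76.2% and 89.4%. The 2 libraries of WT, and of HEAA, differed by more than these steps. H3K4me1 in WT covered 42.5% of summits at distances of 25 bp or less, 42.5% at 26 to 100 bp and 35.9% (28.5% to 44.1%) above 100 bp, and in HEAA 43.0%, 42.1% and 39.4%.

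The UTX list of EV, from cells without a UTX construct, had 31 peaks, and what gave rise to them was not tested. Of the EV peaks, 27 formed a mutual pair with a WT peak and the same number with a HEAA peak, with median summit distances of 46 bp (23 to 73 bp) and 35 bp (23 to 88 bp). The EV peaks in the WT pairs were narrower, with a median of 149 bp against 349 bp. The narrowest peak was 73 bp in the EV list and 167 bp in the WT list, so these widths are not on an equal footing. At the 27 WT–HEAA pairs that met an EV peak the median distance of the WT and HEAA summits was 19 bp (8 to 33 bp). At the 1691 others it was 28 bp (26 to 30 bp). The 27 were only 1.57% of all pairs, so leaving them out could hardly move the median.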

How the data were processed

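ChIP-seq peak lists of 3 lines (EV, WT, HEAA) were compared. There were 18 lists, and the 6 input samples had none. MACS2 and the builds hg19 and GRCh37 are named in the submitters' processing notes. The MACS2 version, aligner, read filters and depth were not given in the sources used here. Peak names of the UTX lists mention merging without saying of what. For each narrow peak the authors deposited a fold enrichment (a linear ratio over background), −log10 p-values and q-values, and the offset of the summit from the start. The summit was start plus offset. A peak that was not called is below the caller's threshold, not without signal, and a summit can move with depth and fragment length.

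An overlap needed at least 1 shared bp, and pairs were mutually nearest overlapping peaks. Shares have 95% Wilson intervals, and medians binomial order-statistic intervals. A histone mark counted when a called region of the line held the line's own summit, and for EV the WT summit. The code (Python 3.11.15, NumPy 2.4.6, pandas 2.3.3, SciPy 1.17.1, matplotlib 3.10.9) was tested on simulated data: all 1500 planted pairs among 2500 peaks were recovered, with the planted median distance of 31.0 bp. No test was made, since there is 1 list per side.

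Regions were named by rule: the 15 pairs with the best mean fold rank, the 8 with the largest summit distance, the 5 best-ranked on the same base, the 5 widest, and the 10 best-ranked with MLL4 in both lines. The members and lists were chosen with earlier results of these data known. Alternatives covered the q threshold, the strongest 1000 peaks, EV peaks, the pairing rule, the midpoint, distance limits, strength measure, histone windows and leaving out a library. An hg19 annotation or sequence was not used here, so sites have no gene names. Groups came from the sample titles.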

Additional observations from a re-analysis of the deposited data

How the results depend on the processing

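Of 107 alternative values, 84 stayed within the interval, spread or tolerance of the reported value (1.5 times for counts, 0.1 for correlations). With peaks of −log10 q of at least 5, 78.0% of pairs were within 50 bp, the MLL4 share of WT was 20.2% with a median of 23 bp, and the Pearson r of the MLL4 offset was 0.400. With the strongest 1000 peaks by q there were 589 pairs, a median distance of 23 bp and 83.7% within 50 bp, while the MLL4 shares were 37.1% in WT (median 24 bp) and 42.7% in HEAA. With midpoints in place of summits the offset had r = 0.289 and rho = 0.188, and r = 0.185 with offsets within 200 bp, a limit added after the data were seen. Limits of 25 and 100 bp gave 47.0% and 91.7% of pairs, and an MLL4 limit of 100 bp gave 20.6% in WT and 23.6% in HEAA (median 24.5 bp). Ranking by −log10 p or q gave a rho of 0.544. Regions within 500 bp of the summit gave H3K27ac in 93.0% in WT and H3K4me1 in 98.1% in WT and 99.0% in HEAA. The cause of these changes was not tested, apart from those that the limits set by construction. Leaving out either H3K27ac library gave 68.6% to 87.4% in WT and 61.9% to 88.2% in HEAA. With 2 libraries each value always lies within 1 SD of their mean, so these counted as within by construction and say nothing on stability. No paired analysis was possible because no result comes from a test and UTX and MLL4 have 1 list per line. Depth, and with it the precision of a single summit, is unknown.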

Other observations

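Strength and place came apart at the first peak of the WT list, on chromosome 15 at 70787052 to 70787691, which was chosen after its values were seen. It had the highest fold and q of the WT list (17.3-fold). Its HEAA partner, with a summit 28 bp away, had 7.91-fold and rank 244 by fold, but rank 8 by q. The WT peak overlapped a UTX peak of EV. The pair with the largest summit distance, 614 bp, lies next to it on the same chromosome, with a WT summit at 70785384.

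H3K4me1 at the summit varied with the strength of UTX in WT, from 34.9% of the strongest 10% of pairs by fold (interval 28.2% to 42.3%) to 53.5% of the weakest (46.0% to 60.8%). In HEAA the corresponding shares were 39.0% (32.0% to 46.4%) and 42.4% (35.3% to 49.9%), but the groups between ran from 34.3% (27.6% to 41.7%) to 52.6% (45.2% to 60.0%). The difference between the lines was not tested.

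Few UTX summits had another of the same list within 1000 bp. The median spacing of neighbouring summits was 375 kb in WT and 332 kb in HEAA, the closest neighbours were 249 and 164 bp apart, and 40 and 44 neighbouring summits lay within 1000 bp of each other. Placement was also read by chromosome. Among the 21 chromosomes with at least 30 pairs, the median summit distance ran from 21 bp on chromosome 15 to 37 bp on chromosome 22. The share of pairs within 50 bp ran from 65.1% on chromosome 22 (43 pairs) to 86.7% on chromosome 6 (60 pairs). Differences between chromosomes were not tested. Chromosome 18 was the only one with a paired share above 80% in either list: 28 of its 33 HEAA peaks were paired (84.8%), and 28 of its 46 WT peaks (60.9%).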
